A study of Mus musculus with 5 samples.

Results

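Cxcl9, Cxcl10 and Cxcr3 are a chemokine pair and its receptor, and they make up 3 of the 28001 features measured in unsorted mouse dorsal skin. The 3 genes were chosen by measured values: their levels in cell groups and genotypes of the same libraries were known when they were picked, so their own levels and differences are given here as a description, without a test. Single-cell RNA sequencing was done on whole dorsal skin of female mice at postnatal day 46, in 2 libraries of a control genotype, Lepr-Cre;mTmG, and 2 libraries of Lepr-Cre;mTmG;Smo+/-, called the Smo mutant here after that label. All mice carried Lepr-Cre, a recombinase driven from the leptin receptor locus, which acts only in cells that use this locus and in their progeny, and mTmG, a 2-colour reporter in the Rosa26 locus whose membrane tomato gives way to membrane GFP once Cre has cut it. Another library held GFP-positive cells sorted from Lepr-Cre;mTmG females at postnatal day 50.

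The protocol text writes the control with Smo and no allele mark after the reporter, and no label says how the Smo allele was altered or how many animals gave a library. Both libraries of a genotype are technical replicates according to the protocol, and errors and p-values below therefore measure the spread between preparations (n = 2 libraries per genotype), not between animals. CXCL9 and CXCL10 are small secreted chemokines of the CXC family, made by many cell types exposed to interferon gamma. CXCL10 is also induced by type I interferons and by NF-kB signalling. CXCR3, their shared G protein-coupled receptor, is carried mainly by activated and memory T cells of the type 1 lineage and by natural killer cells, which it draws into inflamed skin. Such lymphocytes make interferon gamma themselves.

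In GRCm38 (GENCODE annotation, release M21), both ligand genes lie on the minus strand of chromosome 5, 18558 bases apart. Cxcl9 (ENSMUSG00000029417) spans 92321347 to 92328079 and Cxcl10 (ENSMUSG00000034855) spans 92346638 to 92348889. Each has 4 exons in its longest annotated transcript. Cxcr3 (ENSMUSG00000050232) has 2 exons and lies on the minus strand of the X chromosome, from 101731535 to 101734269. The promoters of the ligand genes are shown because the results turn on cells that held these ligands together with other interferon-response transcripts. The windows are RefSeq's, from assembly GRCm38.p6, on the minus strand, from 250 bases before to 50 after the start of transcription. They cover chr5:92328030-92328329 for Cxcl9 and chr5:92348840-92349139 for Cxcl10, and capitals mark matches to the motifs searched.
Cxcl9: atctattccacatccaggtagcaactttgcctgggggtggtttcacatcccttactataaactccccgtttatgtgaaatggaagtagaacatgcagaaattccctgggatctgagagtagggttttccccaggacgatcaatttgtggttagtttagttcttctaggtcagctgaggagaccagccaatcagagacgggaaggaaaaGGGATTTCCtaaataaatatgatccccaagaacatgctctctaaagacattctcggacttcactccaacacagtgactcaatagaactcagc
Cxcl10: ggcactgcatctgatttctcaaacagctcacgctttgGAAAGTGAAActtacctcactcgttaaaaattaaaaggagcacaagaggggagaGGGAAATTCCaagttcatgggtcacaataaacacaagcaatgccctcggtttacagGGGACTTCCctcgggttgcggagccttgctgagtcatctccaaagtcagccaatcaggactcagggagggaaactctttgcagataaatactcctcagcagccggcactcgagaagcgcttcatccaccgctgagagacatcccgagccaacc

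Both strands were searched for 4 motifs. The Cxcl10 window held an interferon-stimulated response element, searched as GAAA, any 2 bases and GAAA, and bound by interferon-activated transcription factors, 213 bases before the start. It also held 2 kappa-B sites, searched as GGGA, any 1 or 2 bases and TTCC, and bound by NF-kB, at 159 and 103 bases before the start. The Cxcl9 window held 1 kappa-B site, 42 bases before the start. Neither ligand window held a gamma-activated site searched as TTCNNNGAA or a T-box site searched as TCACACC, and the Cxcr3 window, chrX:101734098-101734397, matched none of the 4 motifs. Among 32851 promoter windows of this length, 3.44% held the interferon-stimulated response element, 8.30% the gamma-activated site, 3.12% a kappa-B site and 3.98% the T-box site. A match describes the letters of the window only.

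The unsorted libraries held 10748 to 11816 barcodes and 147245343 to 171197845 unique molecular identifiers (UMIs, each counting 1 captured transcript). The 34041 cells kept had a median of 8413.5 to 9934.5 UMIs per library. Each cell was assigned to a class by a fixed number of marker genes, without use of the 3 genes, and 15 classes had at least 20 cells in every library. Of the kept cells, 80.6% fell in a class, 6.24% carried markers of more than 1 lineage and were set aside as mixed, and 12% passed no gate. Any pair of libraries shared 117 to 192 barcodes, and 493 kept cells had a barcode found in another library. Replicates were distinct, with gene counts differing by 5.06 and 5.71 times the chi-square expected from counting alone. Smo itself was at 13.0 and 13.2 CPM (the gene's UMIs scaled to a library total of 1000000) in control libraries and 18.4 and 17.5 in mutant libraries. YFP UMIs numbered 0 in both control libraries and 1126 and 1106 in mutant libraries. No label names a YFP, and Smo was higher in both libraries labelled Smo+/-, so neither gene checks the label.

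Over all kept cells, the 3 genes were scarce, and each stood higher in both mutant libraries than in both control libraries. Cxcl9 measured 9.11 and 6.41 CPM in control libraries and 35 and 30.3 CPM in mutant libraries. Cxcl10 measured 72.8 and 79.9 CPM in control libraries and 282 and 218 CPM in mutant libraries. Cxcr3 measured 1.89 and 1.74 CPM in control libraries and 4.37 and 4.16 CPM in mutant libraries. The 3 genes were chosen with these levels known, and the share of all genes that separate the groups in this way was not computed. In total, 10300 UMIs of Cxcl9, 83670 of Cxcl10 and 1571 of Cxcr3 were counted.

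Cxcl9 was highest in pericytes and vascular smooth muscle cells, the contractile cells around vessels, followed by fibroblasts in the mean of the 4 libraries. The pericyte gate measured 178 and 156 CPM in control libraries and 90.2 and 117 CPM in mutant libraries, with both mutant libraries below both controls. This gate rested on few cells, 158 of its 396 lying at the marker number that admits a cell. The summed level of its 8 pericyte markers was also lower in mutant libraries, at 5077 and 5923 CPM in control libraries and 3213 and 3181 CPM in mutant libraries; its part in the difference was not tested. Requiring 1 more marker lowered the mean Cxcl9 level of the gate from 135 to 89.0 CPM.

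Fibroblasts, the collagen-making cells of the dermis, measured 54.2 and 23.5 CPM of Cxcl9 in control libraries and 37.2 and 27.4 CPM in mutant libraries. These groups overlapped. Without control replicate 1 the fitted Cxcl9 difference in fibroblasts was 0.49, and without control replicate 2 it was −0.73, on the log2 scale (mutant minus control), so its direction depended on 1 library. Langerhans cells, the antigen-presenting cells of the epidermis, came next by their mean, but that mean came from 1 cell. They measured 6.84 and 1.26 CPM in control libraries and 119 and 7.65 CPM in mutant libraries, and 1 cell of mutant replicate 1 held 198 of the gate's 277 Cxcl9 UMIs in that library. Schwann cells, the glia of skin nerves, showed the same kind of dependence. Their Cxcl9 levels were 42.7 and 2.77 CPM in control libraries and 13.0 and 8.88 CPM in mutant libraries, and 1 cell of control replicate 1 held 65 of that library's 73 UMIs.

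The basal keratinocytes, the proliferating layer of the epidermis, were added to the described classes after their values had been seen. Their Cxcl9 level was 4.42 and 4.47 CPM in control libraries and 35.9 and 39.5 CPM in mutant libraries. Both mutant libraries stood far above both controls, and the replicates of a genotype were close. In mutant libraries the basal mean was above that of fibroblasts. The fitted difference was 3.08 ± 0.065 (log2, SE), or 8.44-fold. Basal cells were the largest Cxcl9 source by UMIs in both mutant libraries, holding 31.8 and 38.3% of each library's Cxcl9 UMIs, against 19.7 and 28.4% in the control, although they made up a smaller share of the mutant cells. Follicle keratinocytes measured 15.2 and 27.5 CPM in control libraries and 43.1 and 12 CPM in mutant libraries, with overlapping groups.

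Cxcl10 was highest in Schwann cells, and there it was level across the 4 libraries. It measured 708 and 789 CPM in control libraries and 716 and 740 CPM in mutant libraries, a fitted difference of −0.01 ± 0.085 (log2, SE). The gate's 7 Schwann markers summed to 7338 to 9064 CPM, against 8.37 to 12.7 CPM in basal keratinocytes. By the mean of the 4 libraries the pericyte gate came next, at 504 and 462 CPM in control libraries and 246 and 190.2 CPM in mutant libraries, and both mutant libraries were again lower (−1.18 ± 0.168, log2, SE) and lay below fibroblasts and basal keratinocytes. Fibroblasts measured 231 and 219.8 CPM in control libraries and 314 and 292 CPM in mutant libraries. Their groups did not overlap, but the difference was small (0.45 ± 0.052, log2, SE).

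Blood endothelial cells, with a mean of 243 CPM over the 4 libraries, stood close to fibroblasts, at 264 CPM. They measured 116 and 347 CPM in control libraries and 329 and 178 CPM in mutant libraries, so neither the genotypes nor these neighbours in the order could be told apart beyond the spread. Basal keratinocytes measured 50.3 and 66.3 CPM of Cxcl10 in control libraries and 344 and 304 CPM in mutant libraries, a fitted difference of 2.47 ± 0.069 (log2, SE), or 5.53-fold. In the control they ranked below follicle keratinocytes, which measured 190.4 and 209 CPM, and in mutant libraries above them, at 187 and 133 CPM. Dermal papilla cells measured 27.4 to 31.7 CPM in control libraries and 57.2 to 61.0 CPM in mutant libraries. Their fitted difference was 1.02 ± 0.104 (log2, SE). Lymphatic endothelial cells measured 62.5 to 80.7 CPM in control libraries and 108 to 215 CPM in mutant libraries (1.21 ± 0.283, log2, SE). Langerhans cells showed 17.1 and 20.7 CPM in control libraries and 686 and 40.5 CPM in mutant libraries. A single cell of mutant replicate 1 held 1324 of the 1596 Cxcl10 UMIs that the gate had in that library, and without that library the fitted difference fell from 4.24 to 1.09 (log2).

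**Figure D1:**
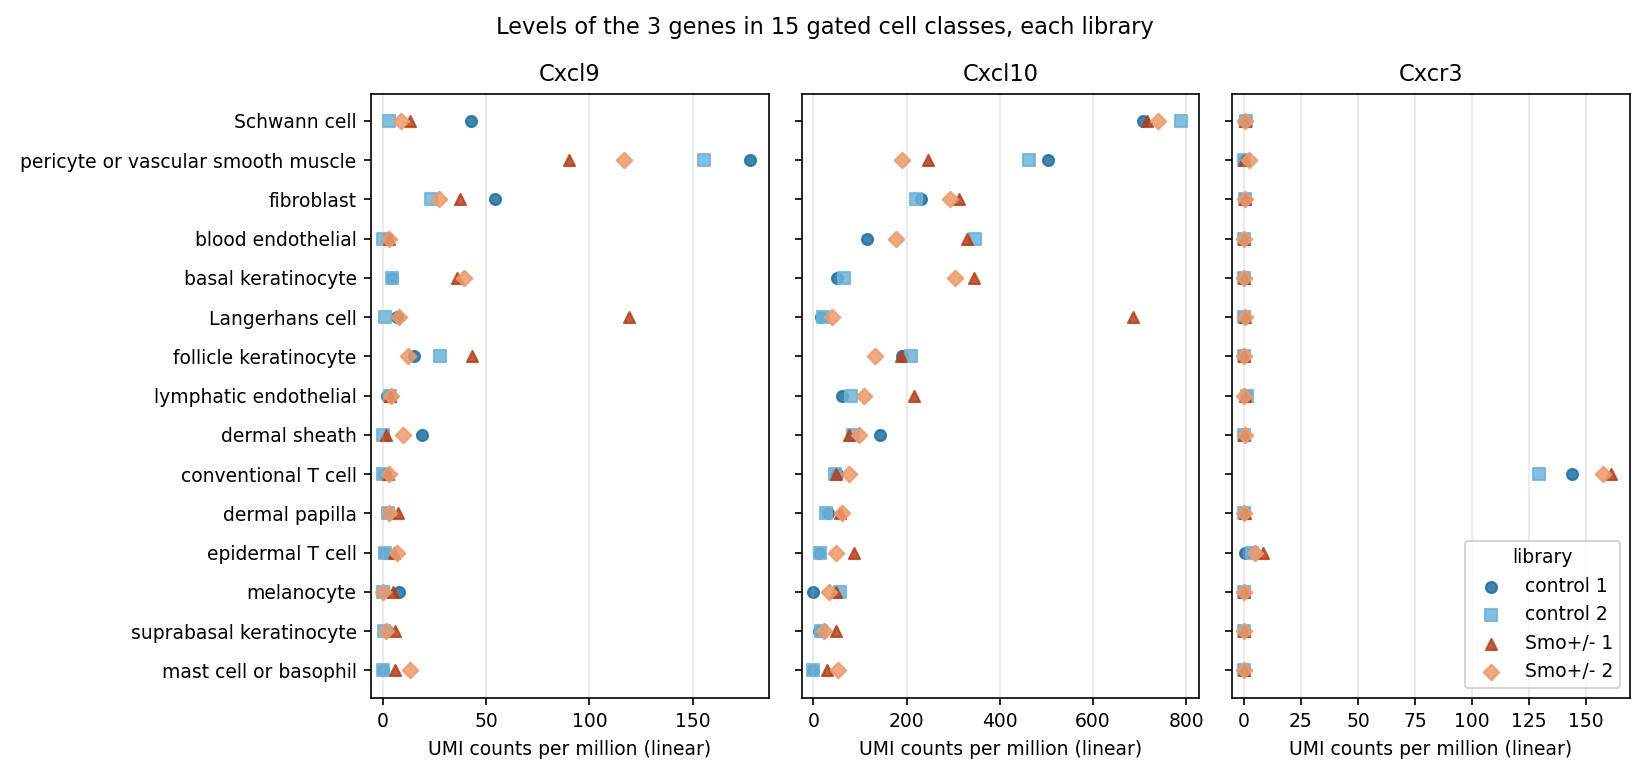
Levels of Cxcl9, Cxcl10 and Cxcr3 in the 15 compared cell classes, in CPM of the class on a linear axis, with 1 point per library (blue, control; red and orange, Smo mutant). Cxcl10 was level across genotypes in Schwann cells (708 to 789 CPM) and separated them in basal keratinocytes, among other classes. Cxcr3 was concentrated in conventional T cells (129.5 to 161 CPM).

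Shares of cells were compared after thinning every cell to 2000 UMIs, because basal keratinocytes had a median of 15316 to 16827 UMIs and most other classes far fewer. At this depth, 34.1 and 32.6% of control and 33.5 and 34.6% of mutant Schwann cells had a Cxcl10 UMI. Pericytes had 33.3 and 31.1% in control libraries and 22.5 and 23.2% in mutant libraries. Fibroblasts had 14.7 and 15.2% in control libraries and 18.6 and 18.9% in mutant libraries. The share of basal keratinocytes was 6.95 and 7.19% in control libraries and 13.5 and 12% in mutant libraries, a ratio under 2 where the ratio of the levels was 5.53. Without thinning, 31.1 and 31.3% of control and 43.2 and 38.8% of mutant basal cells had a Cxcl10 UMI.

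RNA released by other cells gives some UMIs in cells that do not make a transcript, and epidermal T cells, low in Cxcl10, were taken as the reference for that share. It was 2.36% in both control libraries and 7.81 and 5.74% in mutant libraries, at median depths of 4256.5 to 5082 UMIs before thinning. The share in Schwann cells, pericytes, fibroblasts and basal keratinocytes exceeded it in every library. In conventional T cells, at 2.79 and 3.45% in control libraries and 7.75 and 6.53% in mutant libraries, and in suprabasal keratinocytes, at 2.95 and 2.44% in control libraries and 3.92 and 4.75% in mutant libraries, the share was close to or below it, so expression in these classes was not told apart from background by the share. The reference has a limit of its own, since a few T cells were high in Cxcl10. Cells with at least 0.1% of their UMIs from Cxcl10 numbered 1 and 2 in control libraries and 5 and 2 in mutant libraries among epidermal T cells, and the 5 of mutant replicate 1 held 42.6% of the class's Cxcl10 UMIs in that library. Among conventional T cells of mutant replicate 2, 5 such cells held 58.0%. The fitted Cxcl10 difference was 2.30 ± 0.245 (log2, SE) in epidermal T cells and 1.31 ± 0.25 in suprabasal keratinocytes, and the part of released RNA in either was not tested.

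Cxcl9 was rarer at the same depth. Pericytes had a Cxcl9 UMI in 13.3 and 10.0% of control and 12.7 and 9.82% of mutant cells, so the share did not separate the genotypes as the level did. Fibroblasts had 1.86 and 1.3% in control libraries and 2.73 and 2.77% in mutant libraries. Basal keratinocytes had 0.685 and 0.627% in control libraries and 2.32 and 2.20% in mutant libraries. Epidermal T cells had 0.0985 and 0.0945% in control libraries and 0.498 and 0.755% in mutant libraries, below the basal share in each library of the same genotype.

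**Figure D2:**
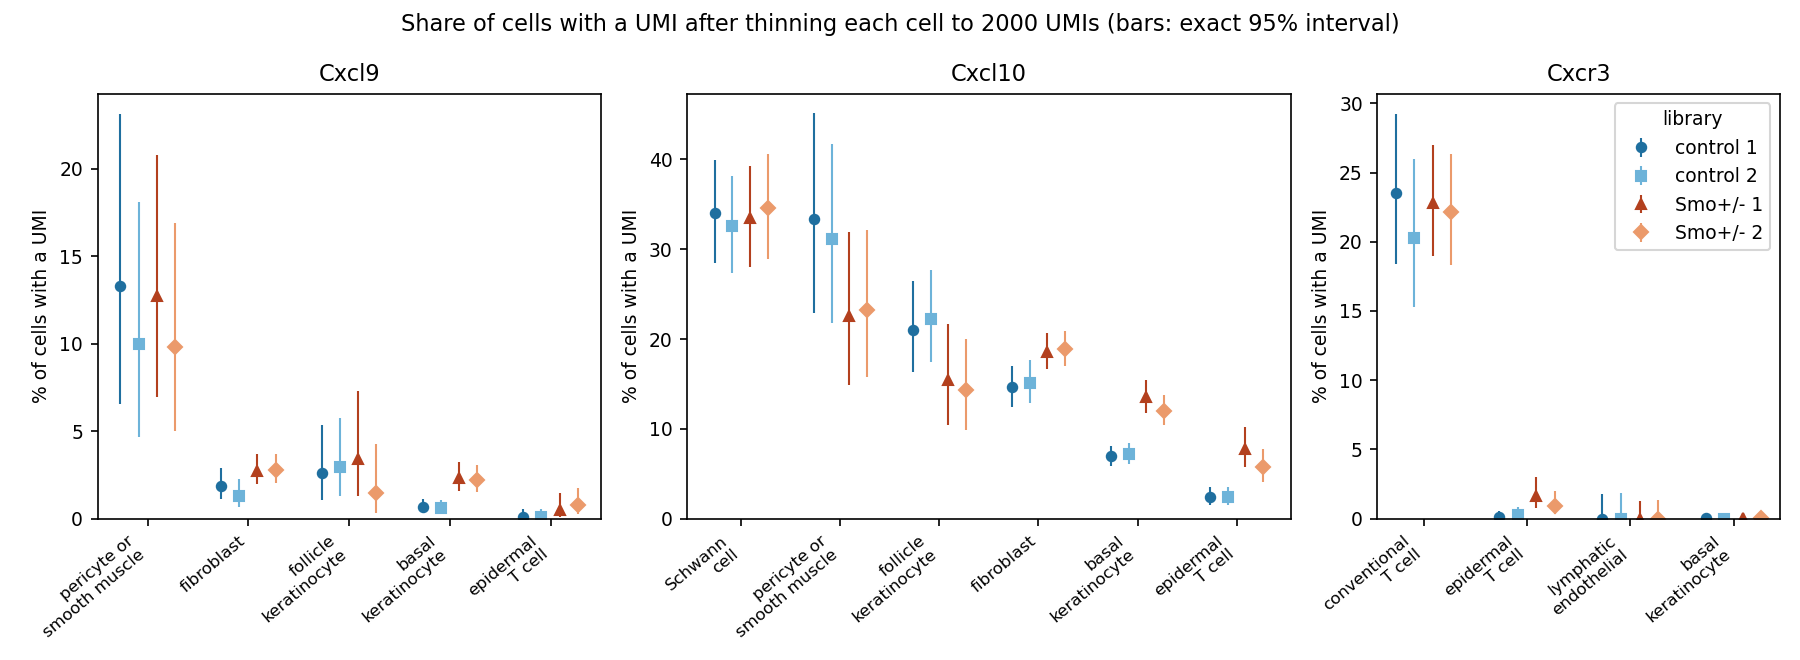
Percent of cells with at least 1 UMI of Cxcl9, Cxcl10 or Cxcr3 after every cell was thinned to 2000 UMIs, 1 point per library, by class, with bars for exact 95% binomial (Clopper-Pearson) intervals that cover counting error only. Schwann cells had the highest Cxcl10 share in each library (32.6 to 34.6%), and 20.3 to 23.5% of conventional T cells had a Cxcr3 UMI.

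In mutant basal keratinocytes most Cxcl10 sat in few cells. Cells with at least 10 Cxcl10 UMIs per 10000 of their own UMIs, or 0.1%, numbered 20 of 2052 and 21 of 2088 in control libraries and 58 of 1393 and 60 of 1470 in mutant libraries. They held 24.1 and 31.9% of the class's Cxcl10 UMIs in control libraries and 84.3 and 81.6% in mutant libraries, and 1 cell of mutant replicate 1 held 1158. With these cells set aside, basal Cxcl10 measured 38.4 and 45.5 CPM in control libraries and 57.0 and 58.9 CPM in mutant libraries. A smaller gap between genotypes remained outside them. The cells were set aside by their own Cxcl10 level, so a lower level and a smaller gap follow in part from the selection. At the same cut, high Cxcl9 cells numbered 1 in each control library and 9 and 10 in mutant libraries.

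Schwann cells held 52 and 54 high Cxcl10 cells in control libraries and 53 and 60 in mutant libraries, with no separation of the genotypes. Fibroblasts held 53 of 999 and 58 of 944 in control libraries and 98 of 1580 and 115 of 1611 in mutant libraries, or 5.31 and 6.14% against 6.20 and 7.14%. Pericytes held 18 of 79 and 16 of 92 in control libraries and 17 of 109 and 14 of 116 in mutant libraries. As shares these were 22.8 and 17.4% in control libraries and 15.6 and 12.1% in mutant libraries, without overlap. Lymphatic endothelial cells had higher shares in mutant libraries, 4.22 and 2.74% against 0.885 and 0.917%, on 2 to 13 such cells per library. So did dermal papilla cells, with 0.774 and 0.656% against 0.286 and 0.570%. Follicle keratinocytes had lower shares in mutant libraries, 3.83 and 2.71% against 4.35 and 6.34%. The cut was set with the data in view, and a cell above it is at 1 end of a range, not a separate type.

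**Figure D3:**
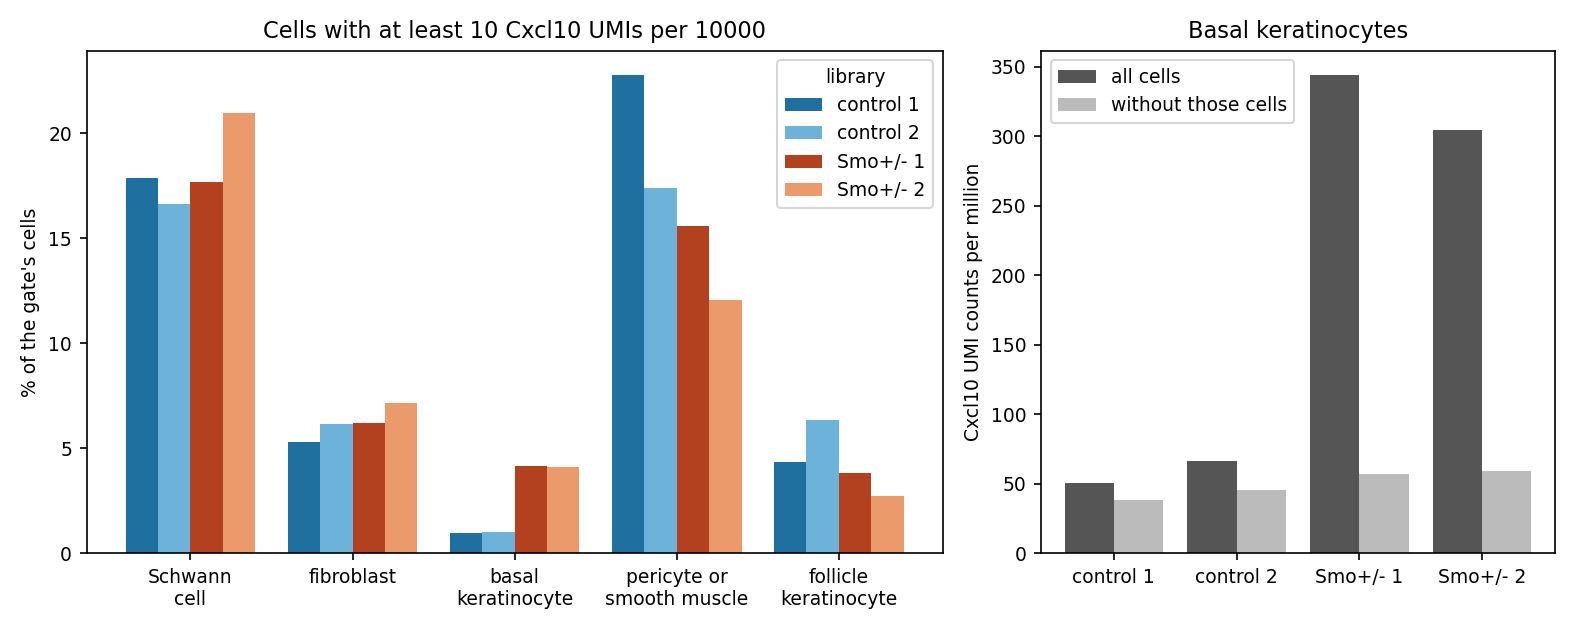
Left, bars give the percent of a class's cells with at least 10 Cxcl10 UMIs per 10000 of their own UMIs, by class and library. Right, bars give basal keratinocyte Cxcl10 in CPM with all cells (dark) and with those cells set aside (light), which brought mutant replicate 1 from 344 to 57.0 and mutant replicate 2 from 304 to 58.9 CPM.

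The 2 ligands were often found in the same cells. Of basal cells with a Cxcl9 UMI at 2000 UMIs, 42.9 and 38.5% in control libraries and 68.8 and 78.1% in mutant libraries also had a Cxcl10 UMI. Among basal cells without Cxcl9, that share was 6.70 and 6.99% in control libraries and 12.2 and 10.54% in mutant libraries. The Cxcl9-positive groups were small, with 14 and 13 cells in control libraries and 32 in each mutant library.

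The reverse share differed between classes. Of Cxcl10-positive pericytes, 40 and 21.4% in control libraries and 39.1 and 26.9% in mutant libraries also had Cxcl9. Of Cxcl10-positive Schwann cells, only 1.06 and 1.98% in control libraries and 4.21 and 3.23% in mutant libraries did. Schwann cells thus held Cxcl10 largely without Cxcl9. So did fibroblasts, with 9.15 and 3.57% in control libraries and 8.60 and 8.53% in mutant libraries. In basal keratinocytes the share was 4.23 and 3.36% in control libraries and 11.8 and 14.3% in mutant libraries.

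Cxcr3 was found mainly in conventional T cells, told from epidermal T cells by genes such as Cd4 and Cd8a. They measured 144 and 129.5 CPM in control libraries and 161 and 157 CPM in mutant libraries, and held 61.1 to 72.5% of each library's Cxcr3 UMIs. The mutant libraries were a little higher, without overlap (0.18 ± 0.103, log2, SE). The T-cell receptor genes are not used here, so T cells were gated on Cd3d, Cd3e, Cd3g, Lat and Cd247, whose summed level was 1360 to 1472 CPM in this class and 4.09 to 5.46 CPM in basal keratinocytes.

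Epidermal T cells, the resident gamma-delta T cells of the mouse epidermis, held far less Cxcr3. They measured 0.598 and 3.40 CPM in control libraries and 8.26 and 5.05 CPM in mutant libraries, from 71 UMIs in all. The 220 T cells left unresolved between conventional and epidermal averaged 24.8 CPM, from 29 UMIs. The small natural killer gate, with 54 cells and 5 Cxcr3 UMIs, averaged 14.4 CPM. Lymphatic endothelial cells ranked next after the T cells but gave only 3 UMIs. No lymphatic cell had a Cxcr3 UMI at 2000 UMIs, which allows up to 1.03 to 1.51% of cells with a UMI per library and sets no limit on the cells that express the gene. Order below the T cells is therefore not resolved at this depth.

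At 2000 UMIs, 23.5 and 20.3% of control and 22.8 and 22.1% of mutant conventional T cells had a Cxcr3 UMI. The groups overlapped. The share in basal keratinocytes, which should lack the receptor, was 0 to 0.0724%, and in epidermal T cells 0.0985 to 1.66%. Conventional T cells made up 3.07 and 2.82% of kept control cells and 5.21 and 4.90% of kept mutant cells, a difference of 2.11 percentage points, and over whole libraries the Cxcr3 level moved with that share. Basal keratinocytes made up 24.8 and 24.9% in control libraries and 16.3 and 16.7% in mutant libraries, and epidermal T cells 12.7 and 12.9% in control libraries and 7.22 and 7.71% in mutant libraries. For each of these shares the two-sided exact permutation p was 0.333, the smallest that 2 against 2 libraries allow.

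Genes with the most similar pattern were ranked by Pearson's r of log2 levels over the 15 classes, which share libraries and depth. Nearest to Cxcr3 were Ms4a6b (0.995), Cd40lg (0.990), A430078G23Rik (0.988), Ifng (0.987) and Gm8369 (0.983). Nearest to Cxcl10 were Col18a1 (0.871), Tspo (0.848), Afap1 (0.841), Afap1l2 (0.834) and C1qbp (0.798), all highest in Schwann cells. Among those nearest to Cxcl9 were Lif and Mt2 (0.775 each), Sh3rf1 (0.766) and Dot1l (0.747). The Cxcl9 values are the lowest of the 3 sets.

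Ifng, which encodes interferon gamma, the main inducer of both ligands, was found in the same class as the receptor. Conventional T cells measured 71.9 and 80.6 CPM of Ifng in control libraries and 49.95 and 74.8 CPM in mutant libraries. Epidermal T cells averaged 4.44 CPM, and no other compared class exceeded 0.727 CPM. Its level did not separate the genotypes. Ifnb1, the gene of interferon beta, gave 8 UMIs in all, so its level was not resolved at this depth.

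Genes induced by interferon gamma differed between genotypes in the basal keratinocytes, where both ligands differed. The genotypes were compared with edgeR's quasi-likelihood test across all genes of a class, and calls needed both an adjusted p (Benjamini-Hochberg) under 0.05 and a log2 difference of at least 1 in size. In basal keratinocytes 293 of 14846 genes were called (1.97%). From a list of 22 interferon gamma type targets, 20 were tested, 12 were higher and none was lower in mutant libraries. Their median difference was 1.76 (log2), against 0.00 for all genes tested. Of the 12, Gbp4, Gbp5 and Tgtp2 measured only 0.0176 to 0.207 CPM in control libraries. They entered the test through their mutant counts and could hardly have been called lower. The list was drawn up with earlier results of these libraries known, and 9 to 12 of its genes were called when 1 library was left out and 8 with DESeq2.

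The higher genes were mostly GTPases that act against intracellular pathogens. Gbp2, a guanylate-binding protein, measured 7.67 and 8.42 CPM in control libraries and 75.9 and 67.5 CPM in mutant libraries (3.15 ± 0.059, log2, SE, edgeR adjusted p = 4.1e-23). Igtp, an immunity-related GTPase, measured 3.84 and 3.53 CPM in control libraries and 39.4 and 35.6 CPM in mutant libraries (3.35 ± 0.069, edgeR adjusted p = 2.1e-22). Irgm2, of the same family, measured 1.28 and 1.17 CPM in control libraries and 14.6 and 12.2 CPM in mutant libraries (3.45 ± 0.116). In all 3, each mutant library stood far above each control library.

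Iigp1, Gbp7, Ifi47, Irgm1 and Gbp3 also rose, by 3.32, 3.01, 2.93, 2.81 and 2.27 (log2). Members of the same list with other functions did not pass. Tap1, the peptide transporter of antigen presentation, differed by 0.21, and the immunoproteasome genes Psmb8 and Psmb9 by −0.13 and −0.28. Of 10 type I interferon type targets tested, only Ifit1 rose, by 1.86 (log2), from 2.26 and 2.33 CPM to 9.0 and 7.57 CPM. Of 10 NF-kB early targets, none was called, with a median of 0.31 and 8 at an unadjusted p under 0.05 by edgeR, 0 called by DESeq2, and 1 called without control replicate 1, control replicate 2 or mutant replicate 2. Of 7 other CXC chemokines, Cxcl5 alone was called, and without mutant replicate 1 it was not (0.86, log2).

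These transcripts shared cells with Cxcl10. In the mutant libraries the basal cells above the Cxcl10 cut, 58 and 60 cells, held 73.0 and 73.1% of the Gbp2 UMIs of the class. With them set aside, the ratio of mutant to control Gbp2 levels was 2.63 in place of 8.96, and that of Igtp 4.70 in place of 10.2. Over 19 interferon gamma type targets the median ratio was 2.26 in place of 3.53, and 11 stayed over 2-fold. Gbp4, Gbp5 and Tgtp2, low in control libraries, were among these 11. Markers of macrophages summed to 12.3 to 17.9 CPM in the basal class, and fibroblast markers to 78.1 and 80.3 CPM in control libraries and 179.9 and 174 CPM in mutant libraries. Of 12 type 1 lymphocyte genes tested in the basal class, 2 were higher in mutant libraries, Cxcr6 by 1.04 and Tbx21 by 1.06 (log2), both at under 3 CPM. Without control replicate 2 neither was called, and DESeq2 called 1. The part of RNA from these other cells in the result was not tested.

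In the classes with the highest ligand levels, the same list did not pass. No interferon gamma type target was called in pericytes, where 0.463% of genes were, with a median of −0.62 (log2) over 14 genes and 6 at an unadjusted p under 0.05 by edgeR. In Schwann cells, where 0.325% of genes were called, 0 of 18 passed, with a median of −0.12 and 5 at an unadjusted p under 0.05. Fibroblasts, with 1.87% of genes called, gave 0 of 18 and a median of 0.02, with 5 at an unadjusted p under 0.05. DESeq2 also called 0 in each of these 3 classes, and edgeR called 3 in pericytes without control replicate 1, 2 without mutant replicate 1 and 1 without mutant replicate 2. Whether the list's difference was larger in basal keratinocytes than in these classes was not tested.

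Type I interferon type targets outside the basal class leaned the other way from Ifit1 there. Their median (log2) was −1.65 in pericytes (3 tested), −0.39 in Schwann cells (12) and −0.53 in conventional T cells (5). It was −0.43 in lymphatic endothelial (10), −0.63 in Langerhans (2) and −0.18 in epidermal T cells (4). None was called in these 6 classes. Of 13 tested in fibroblasts, 2 fell, the antiviral genes Mx1 by 2.19 and Rsad2 by 1.31 (log2). The fibroblast median was −0.48, with none above 0 and 11 at an unadjusted p under 0.05 by edgeR. Both levels were low, with Mx1 at 1.13 and 3.90 CPM in control libraries and 0.720 and 0.367 CPM in mutant libraries. DESeq2 called neither, and without control replicate 2 neither was called (−1.04 and −1.05, log2), nor was Rsad2 without mutant replicate 1 (−0.92).

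In fibroblasts Cxcl12, a chemokine that binds CXCR4 and not CXCR3, rose by 1.44 (log2), from 81.4 and 102 CPM to 260.0 and 239 CPM. The 3 classes with the highest mean Cxcr3 level included lymphatic endothelial cells, with only 3 UMIs of it. Between genotypes, 0.232% of genes were called in conventional T cells, 1.8% in epidermal T cells and 0.315% in lymphatic endothelial cells. Of 13 type 1 lymphocyte genes tested in conventional T cells, none was called by edgeR or DESeq2, with 2 at an unadjusted p under 0.05 by edgeR. In epidermal T cells 2 of 14 of these genes were higher, the chemokine gene Ccl5 by 1.41 and the granzyme gene Gzma by 3.87 (log2), with 7 at an unadjusted p under 0.05. DESeq2 called neither, and without mutant replicate 1 the Ccl5 difference was 0.82 and was not called. In the same cells 3 of 16 interferon gamma type targets were higher, Gbp2 by 2.99, Iigp1 by 2.05 and Gbp7 by 1.48 (log2). Without mutant replicate 2 the call of Gbp7 was lost, without control replicate 1 the count was 5, and DESeq2 called 1. Keratinocyte markers in this gate summed to 1563 and 1352 CPM in control libraries and 2143 and 1739 CPM in mutant libraries; their part in these calls was not tested. In Langerhans cells 0.257% of genes were called and none of 11 interferon gamma type targets by edgeR or DESeq2, with 6 at an unadjusted p under 0.05 by edgeR; without mutant replicate 2 the count was 8, and without mutant replicate 1 it was 1.

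Cells with and without a ligand UMI at 2000 UMIs were then compared within each library, a comparison added after the data had been seen. Counts of the positive and of the negative cells were summed per library, and the sums were tested with edgeR with the library as a block. In basal keratinocytes 79 of 12685 genes were called with Cxcl9 (0.623%) and 123 of 12891 with Cxcl10 (0.954%). Interferon gamma type targets were higher in Cxcl9-positive cells for 12 of 17 tested, with a median of 3.45 (log2) against −0.08 for all genes. In Cxcl10-positive cells they were higher for 9 of 16, with a median of 1.97 against 0.02. None was lower in either comparison. A list gene near 0 CPM in the negative cells could enter the test only through the positive cells. Such a gene could hardly have been called lower, so the absence of lower genes is given as a description.

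Gbp2 in Cxcl9-positive basal cells measured 47.9 and 43.7 CPM in control libraries and 1396 and 1245 CPM in mutant libraries. In Cxcl9-negative cells it measured 7.93 and 8.67 CPM in control libraries and 41.0 and 34.2 CPM in mutant libraries. Positive cells were higher in all 4 libraries, and the gap was widest in mutant libraries; that difference between genotypes was not tested. Among inducing factors, Irf1, a transcription factor that interferon gamma induces directly, was higher by 2.61 ± 0.22 (log2, SE, edgeR adjusted p = 2.1e-08) in Cxcl9-positive and by 1.97 ± 0.077 (edgeR adjusted p = 8.1e-08) in Cxcl10-positive basal cells. Stat2, which carries interferon signals to the nucleus, was higher by 1.96 with Cxcl9 and by 1.12 with Cxcl10. Cd274, which encodes PD-L1, was higher by 2.17 with Cxcl9.

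Of 7 type I interferon type targets tested in basal cells, 4 were higher with Cxcl9 and 5 with Cxcl10. The first count was 1 without mutant replicate 1, and the second was 3 without either mutant library. Basal keratinocyte markers summed to 13771 to 15997 CPM in Cxcl9-positive basal cells and 15894 to 16345 CPM in negative ones, and were lower in the positive cells of each library. Macrophage markers summed to 9.57 to 29.9 CPM in positive and 12.2 to 18.2 CPM in negative cells. Natural killer cell markers reached 59.8 CPM in the positive cells of control replicate 1, against 0.496 CPM in its negative cells, and were at 0 to 2.55 CPM in the positive cells of the other libraries. The part of these markers in the calls was not tested.

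In fibroblasts 155 of 11445 genes were called with Cxcl9 (1.35%) and 359 of 11858 with Cxcl10 (3.03%). Interferon gamma type targets were higher for 14 of 17 tested with Cxcl9 and for 12 of 17 with Cxcl10, with medians of 1.75 and 1.44 (log2). Gbp2 measured 219 and 184 CPM in control libraries and 176 and 207 CPM in mutant libraries in Cxcl10-positive fibroblasts, against 68.0, 69.8, 70.3 and 79.6 CPM in the negative cells of the same libraries. The positive cells were higher in every library, and whether the gap differed between genotypes was not tested. Type I interferon type targets, among them Ifit1 and Oasl2, were higher with Cxcl10 for 8 of 11. Cxcl10-positive fibroblasts also had more of the fibroblast markers, at 60146 to 81766 CPM against 40617 to 44958 CPM, and macrophage markers of 30.8 to 46.4 CPM against 21.1 to 23.8 CPM. Their part in these calls was not tested.

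In pericytes, with 23 to 28 Cxcl10-positive cells per library, 8.8% of 3612 genes were called, so many genes differed there. Of 8 interferon gamma type targets, 5 were higher, and Iigp1 by the most, at 3.25 ± 0.18 (log2, SE, edgeR adjusted p = 5.2e-08). Ccl2 and Cxcl2, chemokines for monocytes and neutrophils, were higher by 1.51 and 1.47 (log2), and Cxcl14 and Cxcl16 were lower, with differences of −2.38 and −1.83. The positive pericytes carried more macrophage markers, 162 to 416 CPM against 33.8 to 101 CPM, and fewer keratinocyte markers, 413 to 653 CPM against 1161 to 2847 CPM. Their part in these calls was not tested. Cxcl9 in pericytes was not fitted, since 1 library had 9 positive cells.

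In Schwann cells the share of genes called was the lowest of these comparisons, though depth and cell numbers differed between classes. Among 7457 genes 0.295% were called, and 0 of 16 interferon gamma type targets passed, with a median of 0.40 (log2) and 9 at an unadjusted p under 0.05 by edgeR. Without control replicate 2 the count was 4, and without control replicate 1 or mutant replicate 1 it was 1. Of 10 type I interferon type targets, 1 was called and all 10 were above 0, with a median of 0.76. By edgeR 7 had an unadjusted p under 0.05, and 0 to 4 were called with 1 library left out. Of 8 NF-kB early targets, 1 was called and all 8 were above 0, with a median of 0.70 and 7 at an unadjusted p under 0.05 by edgeR. Gbp2 was already high in Cxcl10-negative Schwann cells, at 799 and 782 CPM in control libraries and 752 and 572 CPM in mutant libraries, and in positive cells it measured 1177, 806, 925 and 945 CPM in the same order. Irf1 was higher in positive cells by 1.73 ± 0.16 (log2, SE, edgeR adjusted p = 2.0e-05). It measured 302 and 233 CPM in control libraries and 191 and 501 CPM in mutant libraries, against 84.7 to 91.5 CPM in negative cells, above them in all 4 libraries. Macrophage markers did not separate the groups, at 284 to 718 CPM in positive and 445 to 757 CPM in negative cells.

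Immediate early and heat shock genes, which respond to stress and to tissue dissociation, also leaned higher in Cxcl10-positive cells, without passing the test. Of 16 tested, 16 were above 0 in Cxcl10-positive Schwann cells, with a median of 0.47 (log2) and 13 at an unadjusted p under 0.05 by edgeR. In Cxcl10-positive fibroblasts 15 were above 0, with a median of 0.33 and 14 at an unadjusted p under 0.05, and in Cxcl10-positive basal cells 15, with a median of 0.25 and 11. None of the 16 was called by edgeR in these 3 comparisons. The part of dissociation stress in the ligand-positive results was not tested.

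**Figure D4:**
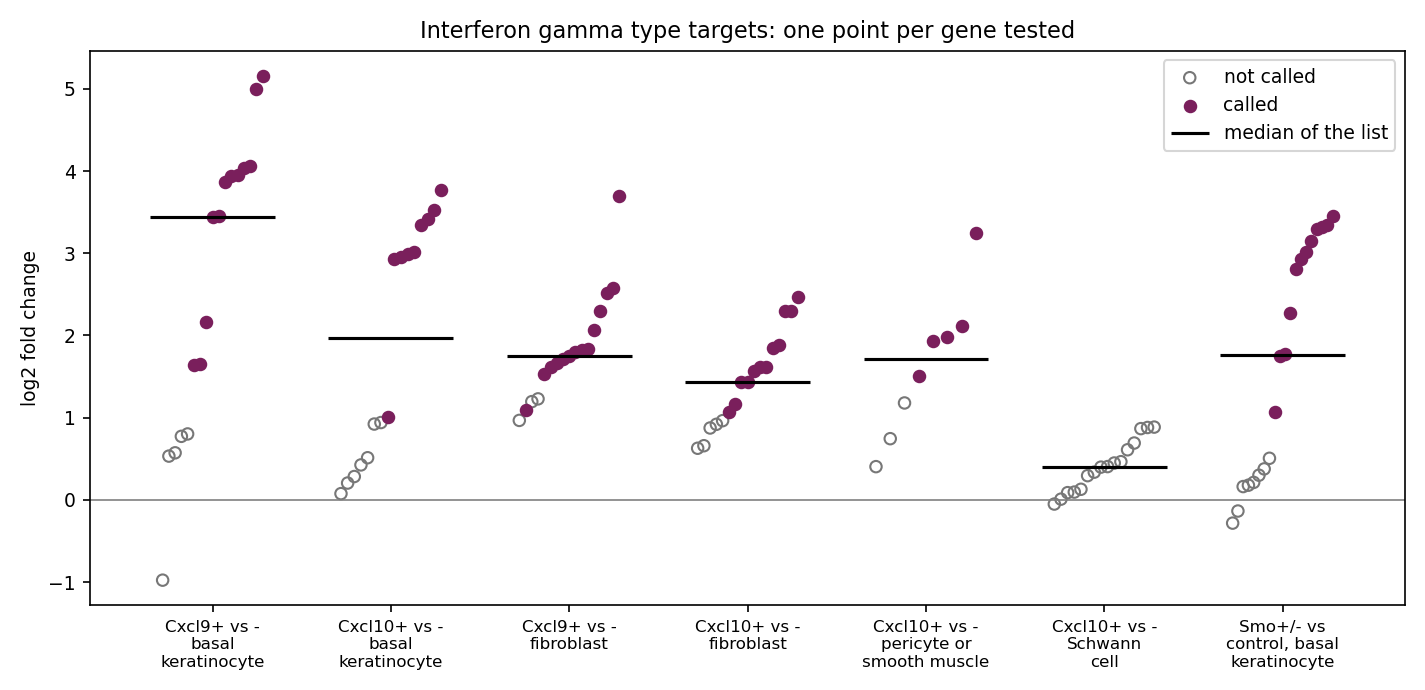
Log2 differences of interferon gamma type targets, 1 point per gene tested, between ligand-positive and ligand-negative cells of 4 classes and, at the right, between genotypes in basal keratinocytes. Filled points passed the test, open points did not, and lines mark the list medians, from 3.45 in Cxcl9-positive basal cells to 0.40 in Cxcl10-positive Schwann cells.

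Conventional T cells with a Cxcr3 UMI were compared with those without in the same way, with 59, 47, 100 and 95 positive cells in control 1, control 2, mutant 1 and mutant 2. Of 6079 genes 28 were called (0.461%), and 26 of them were lower in the positive cells. The other two were Cxcr3 itself, which defined the groups, and Tgfbr3, a co-receptor of TGF-beta, higher by 1.10 (log2). Genes of regulatory T cells, which restrain immune responses, were lower for 4 of 5 tested. Foxp3, the transcription factor that defines them, had 0 UMIs among 1592749 in Cxcr3-positive and 203 among 5517143 in Cxcr3-negative cells. Taking 3 counts over the 4 libraries as the limit for a count of 0, the pooled Foxp3 level was 19.5-fold lower in the positive cells. This limit covers counting error alone, not the spread between cells or libraries, so it sets no lower bound on the fold.

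Foxp3 in the negative cells measured 50.4 and 52.8 CPM in control libraries and 37.3 and 20.5 CPM in mutant libraries. Il2ra, the alpha chain of the interleukin 2 receptor, measured 47.5 and 28.6 CPM in control libraries and 52.6 and 50.9 CPM in mutant libraries in negative cells. In positive cells it measured 13.4 and 0 CPM in control libraries and 7.34 and 6.0 CPM in mutant libraries (−2.78 ± 0.34, log2, SE, edgeR adjusted p = 2.6e-05). The positive cells were lower in all 4 libraries. Tnfrsf4, a costimulatory receptor also called OX40, was lower (−1.49, log2), as was Il1rl1, the interleukin 33 receptor (−3.43). Ikzf2, which encodes Helios, was lower (−1.03), and without control replicate 1 or 2 its difference, −0.92 or −0.98, missed the fold asked for. Ctla4, an inhibitory receptor of activated and regulatory T cells, did not pass and measured 182, 216, 197 and 176 CPM in negative and 234, 217, 173 and 160.1 CPM in positive cells.

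**Figure D5:**
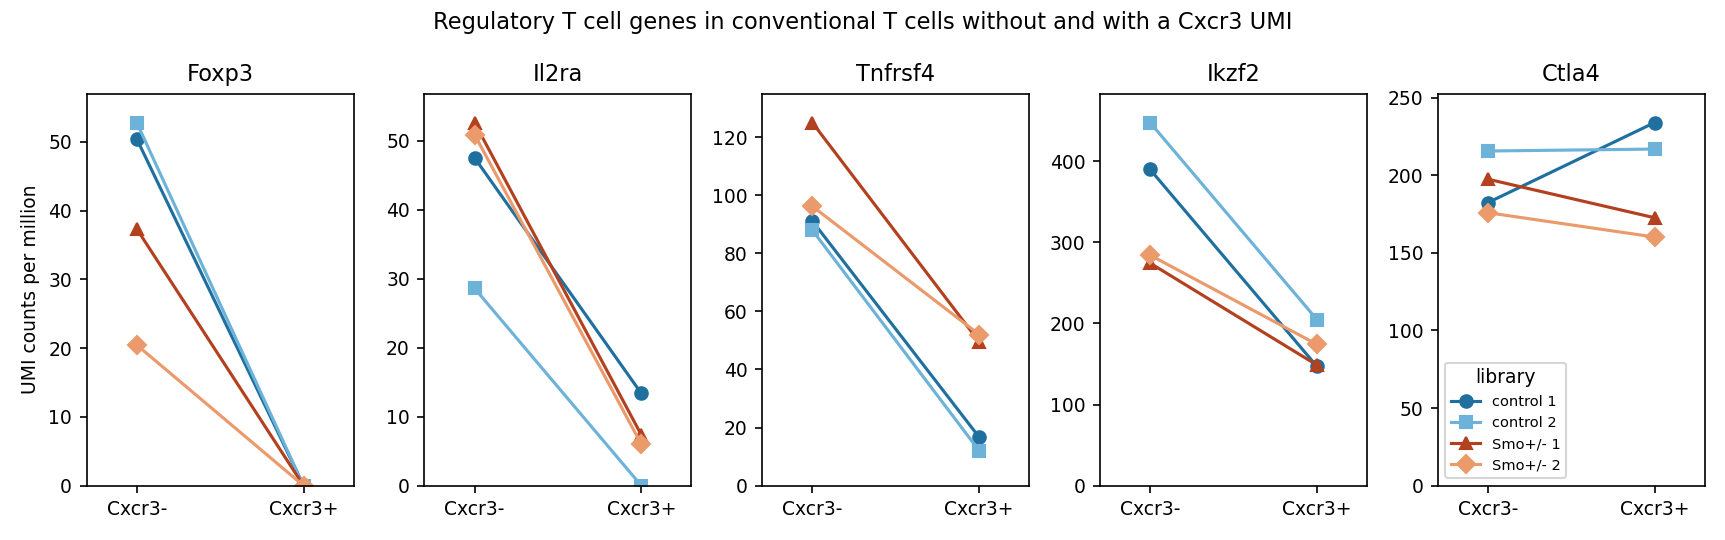
Levels of regulatory T cell genes (CPM, linear axes from 0) in conventional T cells without and with a Cxcr3 UMI at 2000 UMIs, with 1 point per library and lines joining the groups of a library. Foxp3 was at 0 in the positive cells of all 4 libraries, and Il2ra and Tnfrsf4 were lower there in each, while Ctla4 showed no common direction.

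No type 1 lymphocyte gene was called in the receptor-positive cells, but the gates limit this comparison and the genotype comparison above. Nkg7, Eomes, Gzma and Prf1 of this list were gate markers, so cells rich in them could leave the conventional class. Of 13 list genes tested, 0 were called, with a median of 0.12 (log2) and 5 at an unadjusted p under 0.05 by edgeR. Without control replicate 2 the count was 1. Tbx21, the transcription factor of the type 1 lineage, differed by 0.31, Cxcr6 by 0.15, Ccl5 by 0.13 and Ifng by −0.17. A negative cell at this depth may still carry the receptor, since 35 to 41.3% of these cells had a Cxcr3 UMI before thinning. Transcripts of other cells were also among the 26 lower genes, with differences of −1.29 for Krt16 and −1.46 for Sprr1a, genes of stressed keratinocytes, and −5.80 for the haemoglobin gene Hbb-bs. Hbb-bs was lower in the positive cells of 3 libraries and not in control replicate 1, at 17.3 against 12.2 CPM. The heat shock genes Hspa1a and Hspa1b were among the lower genes too (−1.01 and −1.06). Langerhans cell markers were lower in the positive cells of each library, at 124 to 185 CPM against 218 to 367 CPM, while summed keratinocyte markers overlapped, at 505 to 1236 CPM in positive and 578 to 965 CPM in negative cells. The part of these transcripts in the calls was not tested.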

How the data were processed

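The authors deposited raw UMI counts, 1 matrix of genes by cell barcodes per library, already limited to barcodes called as cells. The submitters' processing notes list the mouse builds mm10 and GRCm38 and the tools Cell Ranger (2.1.1 and 3.1.0), Scanpy 1.6.0 and Seurat 3.2.2. Per the labels' protocols, sorted and unsorted cells were captured with different versions of the 10x chemistry, so the sorted library entered no comparison. The 3 genes, gene lists and marker thresholds were chosen with earlier results of these data known.

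Cells with 500 to 8000 genes and at most 10% mitochondrial UMIs were kept. A marker counted as on at 1 UMI or more and above its mean over all kept cells, and a class needed 2 to 4 markers on. No doublet caller was run; cells passing gates of more than 1 lineage were left out. For each library, counts were added up within a class, and the classes holding 20 cells or more in all 4 unsorted libraries were tested with edgeR 4.0.16 (TMM, filterByExpr, genotype as the only term; limma 3.58.1, R 4.3.3). Levels of the 3 genes, of the regulatory T cell genes and of marker sums are plain CPM of the class. Levels of other genes beside fold changes are on the TMM scale. DESeq2 1.42.0, no filter, other gates, other thinning depths and leaving out each library were alternatives. Intervals are exact at 95% (binomial for shares, Poisson for counts) and hold counting error alone; 3 counts is the limit taken for a count of 0. Python 3.11.15 with numpy 2.4.6, scipy 1.17.1 and pandas 2.3.3 was used. The producing and receiving classes named were the 3 with the highest mean level of each gene, and list genes were named by their calls and levels. Some genes that these rules name are not reported here. The edgeR test recovered known changes on simulated data shaped on the genotype comparison in basal keratinocytes and the Cxcl10 comparison in Schwann cells. The simulation changed well-counted genes only, at a fixed spread between libraries, and other classes were not simulated.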

Additional observations from a re-analysis of the deposited data

Results flagged for a closer look

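Cxcl10 was also detected in the library of sorted GFP-positive cells, which no comparison used. It held 22 Cxcl10 UMIs in 10 of 455 barcodes, or 19.3 CPM of 1138206 UMIs (exact 95% Poisson interval 12.1 to 29.3), above the 2.64 CPM that a count of 0 allows. The same library held 1 Cxcl9 UMI and 2 Cxcr3 UMIs, both under that limit. It has no replicate and was made with another chemistry, at postnatal day 50, so these values were not compared with the unsorted libraries.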

How the results depend on the processing

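The ligand and receptor levels kept their order of magnitude under the alternatives, with these exceptions. With 1 more marker, mean Cxcl9 in pericytes was 89.0 CPM and its share 8.10%, and Cxcl10 in Schwann cells was 644 CPM and 32.8% (647 CPM with mixed cells kept). The genotype difference (log2) was then 2.82 for Cxcl9 in basal keratinocytes and 0.15 for Cxcl10 in Schwann cells. Shares move with depth by construction. At 1000 UMIs they were 8.11% (Cxcl9 in pericytes), 1.29% (Cxcl9 in fibroblasts), 12.5% (Cxcr3 in conventional T cells) and, for Cxcl10, 26.5% in Schwann cells, 21.6% in pericytes, 11% in fibroblasts and 6.17% in basal keratinocytes. At 4000 UMIs they were 37.7% for Cxcr3 in conventional T cells and, for Cxcl10, 44.0% in Schwann cells, 23.3% in fibroblasts and 14.7% in basal keratinocytes. Without thinning they were 13.5, 4.55 and 38.9% for the first 3 and 45.2, 41.7, 32.0 and 36.1% for Cxcl10 in the same order.

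Genes called between genotypes numbered, without the filter on low counts, 110 in Langerhans cells, 108 in Schwann cells, 0 in conventional T cells, 115 in epidermal T cells, 132 in fibroblasts, 0 in lymphatic endothelial cells and 90 in pericytes. With DESeq2 they numbered 11 in Schwann cells, 5 in conventional T cells, 77 in epidermal T cells, 134 in fibroblasts and 126 in basal keratinocytes, and with 1 more marker 31 in conventional T cells and 1 in pericytes. With the replicate block they numbered 32 in Langerhans cells, 36 in conventional T cells and 95 in pericytes. The labels' replicate numbers did not pair the libraries (correlations of deviations from −0.114 to 0.0207), and the block left the basal count of interferon gamma type targets at 12. With 1 library left out, the counts ranged from 9 to 86 in Langerhans cells, 58 to 150 in Schwann cells, 19 to 136 in conventional T cells, 208 to 290 in epidermal T cells, 47 to 148 in lymphatic endothelial cells and 86 to 150 in pericytes, and the basal Cxcl10 difference from 2.29 to 2.67 and the fibroblast Cxcl9 difference from −0.73 to 0.49 (log2). Between ligand- or receptor-positive and negative cells, the counts without the library block were 69 (Cxcl10, basal keratinocytes), 6 (Cxcl10, Schwann cells) and 14 (Cxcr3, conventional T cells), and with 1 library left out 82 to 152 (Cxcl9, basal keratinocytes), 73 to 178 (Cxcl10, basal keratinocytes) and 18 to 58 (Cxcr3, conventional T cells). The cause of these changes was not tested.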

Other observations

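Cells outside the gates also held the ligands. Among cells that passed no gate, Cxcl9 measured 7.08 and 6.51 CPM in control libraries and 82.8 and 66.5 CPM in mutant libraries, and Cxcl10 measured 42.9 and 68.4 CPM in control libraries and 416 and 273 CPM in mutant libraries. Among cells with markers of more than 1 lineage, Cxcl10 measured 83.3 and 56.8 CPM in control libraries and 381 and 261 CPM in mutant libraries. In both sets the mutant libraries stood above the control libraries, and the cells were not assigned to a type.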
